A study of Mus musculus with 6 samples.

Results

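The opioid peptide and opioid receptor genes of the mouse were followed in RNA that was precipitated with phosphorylated ribosomes from the vBNST (the ventral part of the bed nucleus of the stria terminalis), a region of the extended amygdala. The members were chosen by gene symbol, and all 8 were found among the 29547 rows of the deposited table. They are 4 peptide precursors (Penk, Pdyn, Pnoc and Pomc) and 4 receptors (Oprm1, Oprk1, Oprd1 and Oprl1). The study screened for molecules behind the way the vBNST reacts to unpredictable threats, and its tissue was taken 90 min after a test labelled CS+ or CS-. Ribosomes were precipitated with an antibody against the phosphorylated form of the ribosomal protein S6, and rRNA was depleted before stranded libraries were made. There were 6 libraries, 3 in the group labelled CS and 3 in the group labelled Con. The labels leave unsaid which of the CS+ and CS- tests the CS libraries represent and how the Con mice were treated. The sources used here give no strain, sex, age, genotype or pooling of animals, and no library is named as input RNA. The antibody's catalogue number differs between all 6 libraries in the labels, so antibody and group cannot be told apart if these entries are right. Nothing states that replicates came from different animals, so the p-values below cover the spread between libraries, which may be technical.

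Opioid peptides are cut from larger precursor proteins inside secretory vesicles. Penk encodes the precursor of the enkephalins, Pdyn that of the dynorphins, Pnoc that of nociceptin and Pomc that of beta-endorphin and the melanocortins. The receptors couple to inhibitory G proteins, which lower cAMP, open inwardly rectifying potassium channels and close presynaptic calcium channels. Oprm1 encodes the mu, Oprk1 the kappa, Oprd1 the delta and Oprl1 the nociceptin receptor. GABAergic neurons that make enkephalin or dynorphin are well known in the extended amygdala, where the kappa receptor is studied in relation to anxiety-like behaviour.

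Depth limits what can be said of most members. Assigned reads ranged from 1365181 to 2342686 in CS libraries and from 765769 to 1427784 in Con libraries, and 1 read on a kilobase of exon equals between 0.427 and 1.31 RPKM (assigned reads per kilobase of exon, scaled to sequencing depth). The 10 most abundant rows took 25.4% to 28.0% of the reads in CS and 30.1% to 39.6% in Con, with Con library 3 the highest. Each library's median deviation from the row means was, on the log2 scale, higher by 0.37 on average in CS than in Con, and median scaling subtracted these deviations before testing. The median log2 fold change of all tested rows was 0.03 after scaling and 0.41 as deposited. Values by library below are as deposited, and means marked as scaled follow that step. Of the tissue's markers, the GABAergic genes Gad1, Gad2 and Slc32a1 had 446, 872 and 341 reads over the 6 libraries, and of 9 genes of known BNST neuron classes only Cyp19a1 was without a read in CS, with 2 reads in Con.

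Penk RNA was far above every other member. Its mean over all 6 libraries was 141 ± 54.1 RPKM as deposited (SD, n = 6). It was followed by Pomc at 6.95 ± 3.76, Oprl1 at 4.02 ± 0.994, Pdyn at 2.00 ± 1.68 and Pnoc at 1.93 ± 1.66 RPKM. Oprd1 had 0.990 ± 0.698, Oprk1 0.486 ± 0.370 and Oprm1 0.0964 ± 0.112 RPKM. The lowest Penk value, 78.9 RPKM, lay above the highest Pomc value, 12.7 RPKM, so the first step of this order exceeded the spread between libraries. All later neighbours had overlapping ranges. Pomc was nevertheless above Oprl1 in 6 of 6 libraries and Oprl1 above Pdyn in 5 of 6, while Pdyn was above Pnoc in 3 of 6. RPKM is per length, so these levels may be set side by side.

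**Figure D1:**
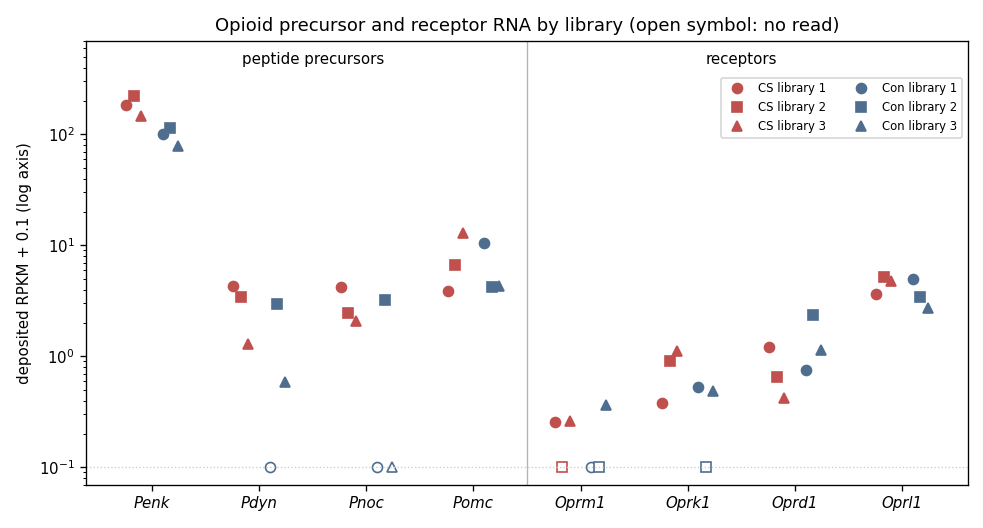
Deposited RPKM plus 0.1 (log axis) of the 4 precursors and 4 receptors, 1 point per library, CS left of Con for each gene; open symbols are libraries without a read. Penk lies between 78.9 and 222 RPKM in every library, and no other member exceeds 12.7 RPKM.

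Penk (chr4:4133531-4138819 in GRCm38, the build of all coordinates here, minus strand, exonic length 1634 bases) was the member in which the groups separated. It had 183, 222 and 147 RPKM in CS libraries 1, 2 and 3 as deposited, against 99.9, 115 and 78.9 RPKM in Con libraries 1, 2 and 3. These values rest on 472, 496 and 562 reads in CS and 125, 226 and 184 reads in Con. Every CS library was above every Con library, a pattern that 18.5% of all tested rows showed on the deposited scale. After median scaling Penk averaged 162 ± 38.3 RPKM in CS and 110 ± 11.2 RPKM in Con (SD, n = 3 each). The closest pair was then CS library 3 at 122 and Con library 2 at 119 RPKM. The groups remained apart, as they did in 7.57% of all tested rows in this direction.

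In relation to protein-coding reads only, a measure that leaves out the abundant noncoding RNAs, Penk stood at 370 to 553 reads per 1000000 in CS and 258 to 320 in Con. The protein-coding share itself was 61.5% to 65.8% of reads in CS and 49.9% to 58.8% in Con, without overlap, and its part in the Penk difference was not tested. By rank of RPKM among all rows it held places 182 to 273 in CS and 341 to 465 in Con. The log2 fold change after median scaling was 0.53 ± 0.21 (SE), a 1.45-fold difference with a 95% interval of 1.02 to 2.06, and it did not pass the threshold of 0.05 after adjustment over all tested rows (limma, unadjusted p = 0.0417, adjusted p = 0.373). On deposited values the log2 fold change was 0.91 (limma adjusted p = 0.143). Only limma voom with library totals called Penk (log2 fold change 0.90 ± 0.23 SE, adjusted p = 0.0393), in a fit that called 2.60% of its 10463 rows higher in CS. That call ended on leaving out any single library except Con library 2. Across those 6 fits the log2 fold change ran from 0.74 to 1.06. The RNA came from precipitated ribosomes, and no library is named as input. More cells of a type, more RNA per cell and more capture of their ribosomes cannot be told apart. A row on the opposite strand, A830012C17Rik, shares 233 exonic bases with Penk and held 15 reads, and the strand setting of the counting is not given in the sources used here.

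**Figure D2:**
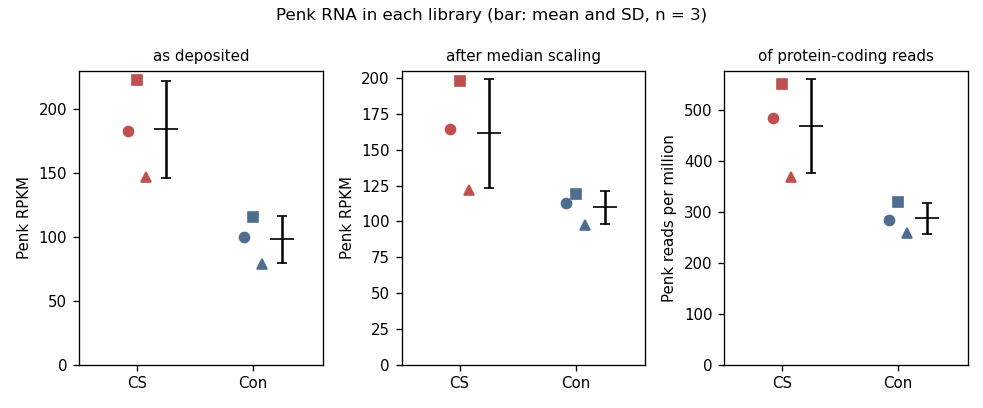
Penk in each library as deposited RPKM, as RPKM after median scaling and relative to protein-coding reads; CS is left of Con, points are libraries and bars are mean and SD (n = 3). The groups do not overlap on any of the 3 scales, and the gap is narrowest after median scaling (122 in CS library 3 and 119 in Con library 2).

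The other precursors rested on few reads, and their groups overlapped. Pdyn (chr2:129686565-129699844, minus strand) had 19, 13 and 8 reads in CS libraries 1, 2 and 3, against 0, 10 and 2 reads in Con. As deposited this is 4.17, 3.30 and 1.18 RPKM in CS and 0, 2.88 and 0.485 RPKM in Con. Con library 2 thus lay within the range of the CS libraries, and the missing read in Con library 1 allows up to 1.36 RPKM, the value of 3 reads there. Over the pooled reads of a group Pdyn had 7.57 reads per 1000000 assigned reads in CS (exact Poisson 95% interval 5.41 to 10.3) and 3.54 in Con (1.83 to 6.18). These intervals, which cover counting error only, overlap. The log2 fold change was 1.87 ± 1.25 (SE), with an interval from -1.13 to 4.88 (limma adjusted p = 0.608). Without Con library 1 it was 0.62, and without Con library 2 it was 3.0.

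Pnoc (chr14:65400673-65425472, minus strand), the nociceptin precursor gene, was read in 3 of 3 CS libraries and 1 of 3 Con libraries. It had 14, 7 and 10 reads in CS and 0, 8 and 0 in Con. The single Con library with reads stood at 3.09 RPKM as deposited, within the CS values of 4.11, 2.38 and 1.98 RPKM. The bounds set by 3 reads in Con libraries 1 and 3 were 1.82 and 0.974 RPKM. Its log2 fold change of 2.76 ± 1.38 (SE) did not pass (limma adjusted p = 0.478), and its size followed the offset added before taking logs, from 0.95 with an offset of 1 to 4.91 with 0.01. Leaving out Con library 2, the only Con library with a Pnoc read, gave 4.35 (limma adjusted p = 0.0797), while leaving out Con library 1 or 3 gave 1.92 and 1.99 (limma adjusted p = 0.682 and 0.597).

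Pomc (chr12:3954951-3960618, plus strand) had 6, 9 and 30 reads in CS and 8, 5 and 6 in Con. CS library 3 held 12.7 RPKM as deposited, and Con library 1 came next with 10.4 RPKM. The remaining values were 3.77 and 6.55 RPKM in CS and 4.13 and 4.17 RPKM in Con. The groups overlapped fully, with a log2 fold change of -0.10 ± 0.54 (SE, limma adjusted p = 0.952). Pomc is best known from neurons of the hypothalamus and from the pituitary. Of the hypothalamic peptide genes measured, 7 had a read in CS and 5 in Con, where assigned reads were fewer on average. Pmch and Ghrh had 20 and 4 reads in CS, for each gene in 1 library only, and 0 in Con. The summed level of the 7 genes after median scaling was 64.0 to 86.5 RPKM in CS and 48.5 to 67.3 in Con, with overlap. As deposited it was 71.2 to 104 in CS and 47.0 to 59.4 in Con, without overlap. Agrp, the peptide gene of the neurons that oppose Pomc neurons, was covered by 38 CS reads and 22 Con reads, and it overlaps Ctcf on the opposite strand. Of the pituitary genes measured, all 4 had a read in CS and 1, Gh, in Con. Gh had 5 reads in each group, while Tshb, Lhb and Tbx19 had 7, 1 and 1 in CS and 0 in Con. The sums of the 4 genes after scaling were 0.964 to 3.05 RPKM in CS and 0 to 3.0 in Con. The part of these cells in the Pomc values was not tested.

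Among the receptors Oprl1 (chr2:181715016-181720985, plus strand) held most of the signal. It had 21, 26 and 41 reads in CS and 14, 15 and 14 in Con, or 3.54, 5.07 and 4.66 RPKM in CS and 4.87, 3.33 and 2.61 RPKM in Con as deposited. Con library 1 lay within the CS range. The log2 fold change was -0.05 ± 0.32 (SE, limma adjusted p = 0.958), and the 95% interval of the fold ran from 0.565 to 1.65. On deposited values its estimate was 0.32, above 0.

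Oprd1 (chr4:132110726-132144486, minus strand) was the one member whose estimate was below 0 in each of the 13 other fits that included it, and it was not called in any of them. It had 7, 3 and 3 reads in CS and 2, 11 and 6 in Con. As deposited the values were 1.10, 0.547 and 0.318 RPKM in CS and 0.650, 2.28 and 1.05 RPKM in Con, and the groups overlapped. The log2 fold change was -1.25 ± 0.74 (SE, limma adjusted p = 0.556).

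Oprk1 and Oprm1 were below the minimum mean of 0.5 RPKM and were not tested. Oprk1 (chr1:5588466-5606131, plus strand) had 4, 10 and 22 reads in CS and 3, 0 and 5 in Con. That is 0.277, 0.80 and 1.03 RPKM in CS and 0.428, 0 and 0.383 RPKM in Con. CS library 1 was below 2 of the Con libraries, and the absence of reads in Con library 2 allows up to 0.273 RPKM. Pooled, Oprk1 had 6.81 reads per 1000000 in CS (exact Poisson 95% interval 4.77 to 9.43) and 2.36 in Con (1.02 to 4.64). These intervals did not overlap, but they leave out the spread between libraries, and CS library 3 alone held 22 of the 36 CS reads. Oprm1 (chr10:6758506-7038198, plus strand), the mu receptor gene, had 2, 0 and 3 reads in CS and 0, 0 and 3 in Con. With 8 reads in all, no difference was detectable at this depth, and Oprm1 shares 96 exonic bases with Ipcef1 on the opposite strand, which held 115 reads.

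In all, 6 of 8 members were tested, the 4 precursors and 2 receptors. None was called by limma over all rows, where 0.968% of 20550 rows were called, and 1 (Penk) had an unadjusted p under 0.05, as did 12.5% of all rows. With voom and median scaling, which fitted the 3 members that had at least 60 reads, none was called either. Of the estimates, 3 (Penk, Pdyn and Pnoc) were above 0 and 3 (Pomc, Oprd1 and Oprl1) below. Their median log2 fold change was 0.24, beside 0.03 over all tested rows. Pomc and Oprl1 lay above 0 on deposited values and with quantile normalization, while the other 4 kept their sign.

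**Figure D3:**
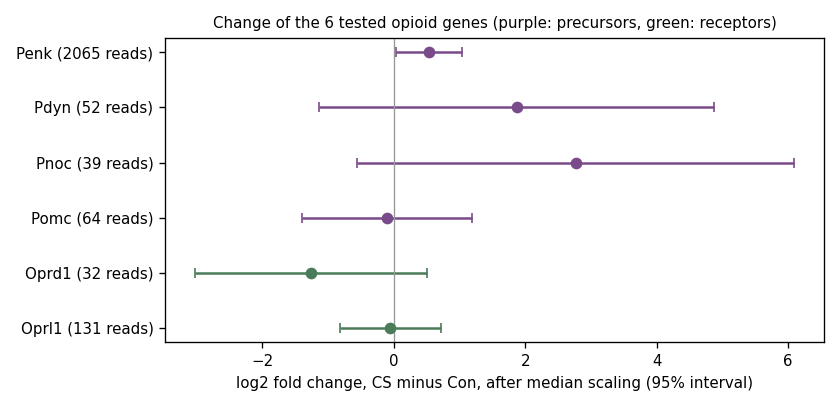
Log2 fold change of CS minus Con after median scaling for the 6 tested members, with 95% intervals and total reads per gene. The Penk interval, on 2065 reads, is the narrowest and lies above 0 before adjustment; the other 5 span 0.

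The precursors and receptors were then compared within each library, which needs no scaling between libraries. Summed precursor RPKM was 195, 235 and 163 in CS libraries 1, 2 and 3 and 110, 125 and 83.5 in Con libraries 1, 2 and 3. Summed receptor RPKM was 5.08, 6.42 and 6.17 in CS and 5.95, 5.61 and 4.30 in Con. The precursor sums did not overlap between the groups, and the receptor sums did. The ratio of precursors to receptors was 38.4, 36.5 and 26.4 in CS and 18.5, 22.3 and 19.4 in Con, or 33.8 ± 6.46 in CS and 20.1 ± 2.00 in Con (SD, n = 3 each). Penk made up 90.2% to 94.8% of the precursor sum in CS and 90.6% to 94.4% in Con, so this ratio is nearly that of Penk alone. Without Penk it was 1.9 to 2.57 in CS and 1.08 to 1.80 in Con, without overlap, with CS library 2 and Con library 2 as the closest pair. The precursor sum then rested on few reads, in Con library 1 on 8 Pomc reads alone. In Con library 3 it held 6 Pomc and 2 Pdyn reads. The ratio without Penk was not taken from reads. Oprl1 made up 69.7% to 79.0% of the receptor sum in CS and 59.4% to 81.9% in Con. The receptor sums rest on 34 to 69 reads per CS library and 19 to 28 per Con library. When the ratio was taken from reads, which are not per length, the groups overlapped. Since the members were chosen with results of these data known, the ratio is a description and has no p-value.

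Penk was set against marker genes of the same library for the neurons in which it could reside. Relative to the summed GABAergic markers Gad1, Gad2 and Slc32a1, Penk was 4.35, 4.04 and 3.71 in CS and 3.15, 3.86 and 3.26 in Con. CS library 3 lay below Con library 2, so the groups overlapped, with means of 4.04 ± 0.317 in CS and 3.42 ± 0.381 in Con (SD, n = 3 each). Over Gad1 alone the mean was lower in CS, with 20.7 against 27.8 in Con. Over Gad2 and Slc32a1 alone it was higher in CS, with 9.67 and 11.5 against 7.49 and 8.77 in Con. The groups overlapped over each of these genes. An overlap was also seen relative to the 9 BNST class genes, with 1.64 to 2.16 in CS and 1.04 to 1.99 in Con. Relative to Sst, the somatostatin gene and the most abundant of the 9, Penk was 2.28, 2.98 and 3.61 in CS and 6.55, 4.60 and 3.21 in Con. The CS mean thus lay below the Con mean, with overlap. Of the 8 class genes tested, 3 estimates were above 0 and 5 below. Their median log2 fold change was -0.47, beside 1.19 for Sst. None was called by limma on log2 RPKM, while limma voom called Lhx6 and Zfhx3 lower with median scaling and 0 with library totals. The GABAergic sum itself was 39.5 to 55.0 RPKM in CS and 24.2 to 31.7 in Con as deposited, without overlap, and 32.8 to 49.0 in CS and 29.8 to 35.9 in Con after scaling, with overlap. Limma voom with library totals, the fit that called Penk, also called Gad1 higher (log2 fold change 1.22 ± 0.29 SE, limma voom adjusted p = 0.0341). With median scaling it called none of the GABAergic markers. The part of the GABAergic sum in the Penk difference was not tested. These ratios were chosen after other values of the data were seen.

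Against summed striatal markers the groups were apart. Striatal neurons that project to the external pallidum are the classical site of Penk, next to the dopamine and adenosine receptor genes Drd2 and Adora2a, and the striatum borders the BNST. All 4 measured markers of these neurons had reads in both groups. Their summed level after median scaling was 10.3 to 14.1 RPKM in CS and 19.4 to 24.6 in Con, below Con in every CS library, although the sums overlapped as deposited (12.4 to 15.8 in CS and 15.7 to 23.9 in Con). Of these 4 markers Sp9 overlaps Cir1 on the opposite strand, and Gpr6 had 18 reads. Sp9 was the most abundant of them and had a log2 fold change of -1.03, beside -0.61 for Drd2 and -0.08 for Adora2a. Penk over this sum was 11.7, 14.1 and 11.8 in CS and 5.82, 4.82 and 5.01 in Con. Over the single genes the groups overlapped, with 43.8 to 155 in CS and 23.9 to 44.0 in Con for Drd2, and 30.5 to 45.9 in CS and 18.4 to 32.3 in Con for Adora2a. Over 4 markers common to both striatal projection types (Ppp1r1b, Rgs9, Adcy5 and Bcl11b), Penk was 0.769 to 0.903 in CS and 0.238 to 0.323 in Con. These markers summed to 148 to 220 RPKM in CS and 326 to 499 in Con after scaling. Their log2 fold changes were -0.79, -0.21, -1.36 and -1.04 in that order. Ppp1r1b, the most abundant of them, shares 460 exonic bases with 1700003D09Rik on the opposite strand, which held 2943 reads beside its own 3547. Over the 4 markers of dynorphin-type striatal neurons, among them Drd1 and Tac1, Penk was 19.1 to 27.8 in CS and 12 to 17.1 in Con. Over Drd1 alone (26.1 to 44.3 in CS and 16.9 to 28.7 in Con) and over Tac1 alone (123 to 344 in CS and 52.2 to 130 in Con) the groups overlapped. None of the tested markers in the 3 striatal lists was called by limma on log2 RPKM. Limma voom called Adcy5 lower with either scaling and Sp9 and Bcl11b lower with median scaling. Of all 10463 rows it called 645 lower with median scaling and 253 lower with library totals. Penk thus stood higher in CS while the summed enkephalin-type and common striatal markers stood lower after scaling; the part of striatal tissue in the Penk values was not tested.

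Non-neuronal markers were also present. The 5 oligodendrocyte markers summed to 57.1 to 145 RPKM in CS and 151 to 274 in Con after scaling, below Con in every CS library, and overlapped as deposited (63.5 to 162 in CS and 123 to 265 in Con). The 5 astrocyte markers summed to 50.6 to 60.7 RPKM in CS and 49.7 to 63.7 in Con after scaling, and to 56.3 to 68.1 in CS and 40.3 to 56.2 in Con as deposited, without overlap. The 5 microglia markers summed to 24.3 to 32.7 RPKM in CS and 27.4 to 48.6 in Con, so both of these sums overlapped after scaling. All of these markers had reads in both groups, and their part in the Penk difference was not tested. Penk over the oligodendrocyte sum was 1.37 to 2.88 in CS and 0.434 to 0.643 in Con, and the groups were also apart over the astrocyte and microglia sums. They overlapped over oligodendrocyte precursor markers (43.6 to 76.8 in CS and 35.9 to 64.4 in Con) and over the glutamatergic, hypothalamic, endothelial and ependymal lists.

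**Figure D4:**
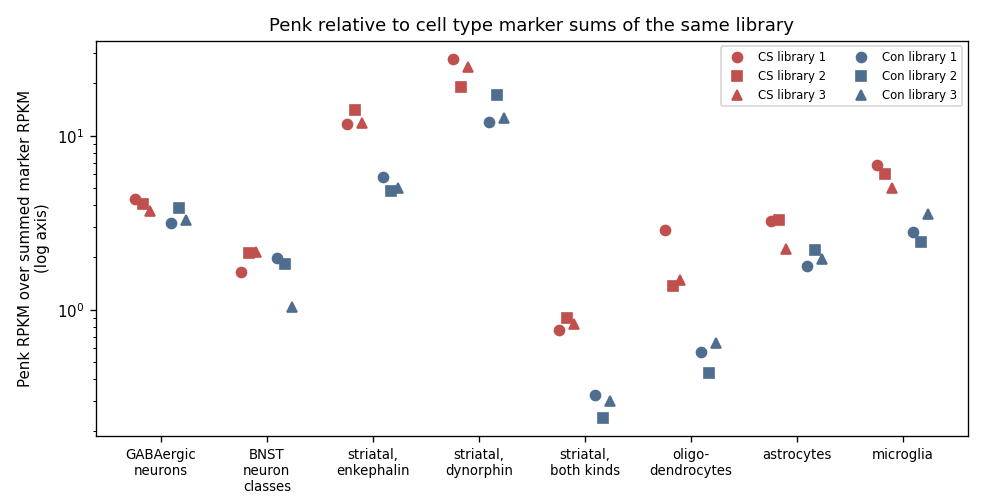
Penk RPKM divided by the summed RPKM of marker lists in the same library (log axis), 1 point per library, CS left of Con. The groups overlap over GABAergic and BNST class markers and are apart over the 3 striatal, the oligodendrocyte, the astrocyte and the microglia lists, for example 11.7 to 14.1 in CS and 4.82 to 5.82 in Con for markers of enkephalin-type striatal neurons.

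Penk was the only member with at least 200 reads, so the genes whose pattern was most like it were sought for Penk alone. Over the 6 libraries and 5050 other rows with at least 200 reads, the highest Pearson correlations of scaled log2 values were with Bcat1 (r = 0.999), a branched-chain amino acid transaminase gene, Syt5 (r = 0.992), a synaptotagmin gene, and Rps6kc1 (r = 0.992). Of the 5050 rows, 143 had r above 0.9 over these 6 points, which share library depth and scaling. Their log2 fold changes were 0.42, 0.54 and 0.39, and none was called.

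Genes around opioid signalling were read from the same fit, in 8 lists that held 51 genes of the table, all of them tested. Of the 51, 1 was called by limma on log2 RPKM, Gnao1, which encodes the alpha subunit of Go, the main G protein by which opioid receptors act in neurons. Gnao1 had 28.3, 28.7 and 24.8 RPKM in CS and 41.5, 51.2 and 40.2 RPKM in Con as deposited. Every CS library was below every Con library. After scaling it fell to 23.9 ± 2.86 RPKM in CS, against 49.8 ± 2.91 in Con (SD, n = 3 each; log2 fold change -1.06 ± 0.15 SE by limma, with an adjusted p of 0.0385). This estimate was below 0 in all 17 alternatives and passed in 5 of them, voom on either scaling included. The call was lost on deposited values (-0.69, limma adjusted p = 0.139), with quantile normalization (-0.80), and on leaving out any single library (limma adjusted p from 0.0689 to 0.162). Gnao1 overlaps Gm26843, with 816 reads beside its own 3233, on the opposite strand. Of the other inhibitory alpha subunits Gnaz had the opposite direction, with 14.6 ± 2.11 RPKM in CS and 9.22 ± 1.73 in Con after scaling, without overlap. Its log2 fold change of 0.65 ± 0.22 (SE) did not pass (limma adjusted p = 0.285). By voom with library totals it passed (log2 fold change 1.04 ± 0.28 SE, limma voom adjusted p = 0.0482). Gnai1, Gnai2 and Gnai3 had estimates between -0.07 and 0.09.

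Over the 51 genes 20 estimates were above 0 and 31 below, beside 10685 above and 9865 below over all 20550 tested rows. The median log2 fold change of the 51 was -0.07. That median was 0.30 on deposited values and 0.11 with quantile normalization, beside 0.03, 0.41 and 0.16 over all tested rows in the same order. In 10 of the 51 every CS library was below every Con library after scaling, beside 15.4% of all tested rows, and in 2 every CS library was above, beside 7.57%. Limma voom, which fitted 46 of them, called 4 with either scaling. These were Cpe, Gnao1 and Adcy5 lower with both, Gnaz higher with library totals and Rgs20 lower with median scaling. Over all 10463 rows it called 673 with median scaling (645 lower) and 525 with library totals (253 lower).

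The genes that turn precursors into active peptides included one near the threshold. Cpe, which encodes the carboxypeptidase that trims basic residues from the cut peptides, had 65.3, 91.0 and 57.1 RPKM in CS and 142, 131 and 136 RPKM in Con as deposited, without overlap. After scaling it averaged 62.4 ± 17.2 RPKM in CS and 155 ± 16.9 in Con (log2 fold change -1.34 ± 0.22 SE, limma adjusted p = 0.0592). It was below 0 in all 17 alternatives and passed in 4, among them voom and median scaling and voom and library totals (limma voom adjusted p = 0.00323 and 0.023). Ctsl, a protease that also cuts proenkephalin, had 8.0 ± 0.578 RPKM in CS and 11.7 ± 0.675 in Con after scaling, and did not pass (limma adjusted p = 0.263). Of the 9 processing genes 4 had estimates above 0 and 5 below. The convertase genes Pcsk1 (1.46 ± 1.66 SE, 45 reads) and Pcsk2 (-0.19 ± 0.41) had overlapping groups.

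All 6 genes of peptide breakdown had estimates below 0 after scaling, as did 9865 of all 20550 tested rows. The median of the 6 was -0.32, or 0.05 on deposited values, and none was called. The aminopeptidase gene Anpep stood at -1.76 ± 0.71 (log2, SE) with 24 reads in all, and Npepps, another aminopeptidase gene, had -0.66 ± 0.33. Mme, which encodes neprilysin, the classical enkephalinase, had 0.832 ± 0.0921 RPKM in CS and 1.11 ± 0.0539 in Con after scaling (limma adjusted p = 0.79).

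Among receptor effectors 6 estimates were above 0 and 4 below, and none was called by limma on log2 RPKM. Adcy5, the adenylyl cyclase that is also a striatal marker, had 68.8 ± 25.2 RPKM in CS and 170 ± 17.6 in Con after scaling (limma adjusted p = 0.086). The potassium channel gene Kcnj9 had 14.8 ± 0.851 RPKM in CS and 11.1 ± 1.15 in Con after scaling, with every CS library above Con (limma adjusted p = 0.407). Of 8 genes for RGS proteins, which speed the shut-off of G proteins, and their partner Gnb5, 3 estimates were above 0 and 5 below. Rgs20 had 3.58 ± 0.43 RPKM in CS and 8.70 ± 0.592 in Con after scaling (limma adjusted p = 0.0654). Rgs17 had 36.4 ± 12 in CS and 68.1 ± 21.6 in Con after scaling (limma adjusted p = 0.322). Its groups overlapped as deposited (27.8 to 52.1 RPKM in CS and 45.0 to 90.1 in Con). Rgs20 overlaps Atp6v1h on the opposite strand, with 159 reads beside its own 203.

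The receptor kinase and arrestin genes had 3 estimates above 0 and 3 below, from -0.20 for Arrb2 to 0.22 for Grk6, and all 6 had overlapping groups. Of 3 genes named for opioids without belonging to the family, Ogfr, the opioid growth factor receptor gene, had -0.07 ± 0.18 and Ogfrl1 had -0.35 ± 0.49. Of 4 regulators of precursor transcription, Kcnip3 encodes a calcium-dependent repressor of Pdyn. It had 7.19 ± 2.43 RPKM in CS and 4.79 ± 0.915 in Con after scaling (log2 fold change 0.52 ± 0.34 SE). The cAMP-responsive modulator gene Crem had -1.03 ± 0.71 on 33 reads. None of these was called.

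**Figure D5:**
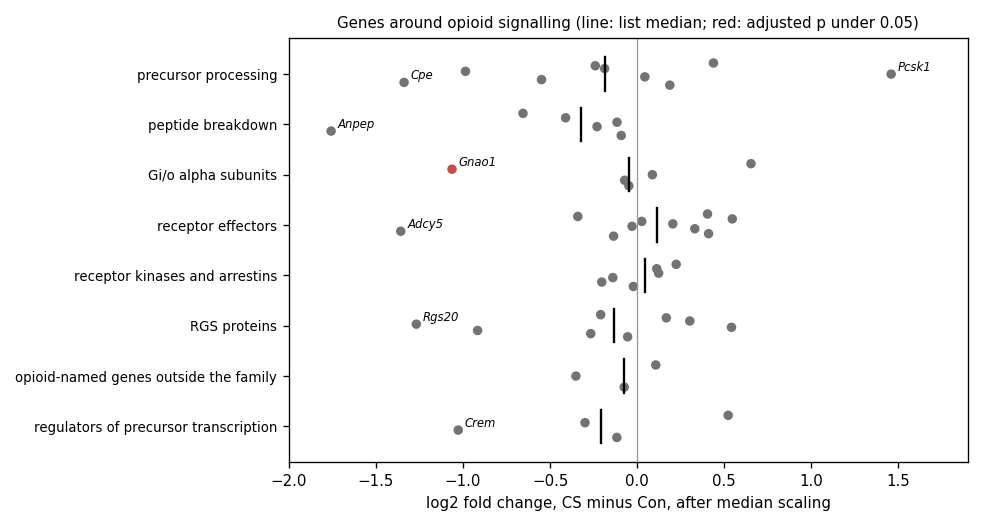
Log2 fold change of CS minus Con after median scaling for the 51 genes of 8 lists around opioid signalling, 1 point per gene; black lines are list medians and the red point is Gnao1, the only one past the threshold (limma adjusted p = 0.0385). Cpe and Adcy5 lie at -1.34 and -1.36.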

How the data were processed

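RNA from phosphorylated ribosomes of mouse vBNST was measured in 3 CS and 3 Con libraries. The authors deposited RPKM values for each row, with the summed exon length in bases. The submitters' processing notes name Trimmomatic 0.36 and, for counting, featureCounts from Subread 1.5.1, with GRCm38 and mm10 as builds. Aligner and strand setting: not given in the sources used here. Coordinates are those of the deposited table. RPKM times length gave whole reads for 100% of the values above 0 (tolerance 0.01 read), so reads were recovered.

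Rows with a mean of at least 0.5 RPKM were tested as log2(RPKM + 0.1) after subtracting each library's median deviation, using limma 3.58.1 (R 4.3.3), lmFit and then eBayes with a variance trend, Benjamini-Hochberg adjustment and a threshold of 0.05. The offset understates changes of low rows that have reads in every library, and it sets the size of the change where a library has none. Limma voom was run on recovered reads of rows with at least 60 reads. A bound for a library without a read is 3 reads. Besides the members and markers, the rule named the 2 genes with the smallest p of each list and the 3 rows most like Penk; Gnai1 to Gnai3, Pcsk1, Pcsk2 and Mme were named after their values were seen. Alternatives changed the offset, filter, scaling, variance trend, block and libraries. One gene of a pathway list and one of a marker list are not reported here and were left out of their lists' values. Members and lists were chosen with earlier results of these data known. RefSeq types (GRCm38.p6) defined protein-coding reads.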

Additional observations from a re-analysis of the deposited data

How the results depend on the processing

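Of the members, 0 were called under each alternative tried except voom with library totals, which called 1 (Penk). Penk stayed above 0 in all 17 alternatives (0.38 to 0.91 on the log2 scale), Pdyn in all 14 and Pnoc in all 13 that included them, and Oprd1 below 0 in all 13. Pomc and Oprl1 turned above 0 as deposited (0.27 and 0.32), with quantile normalization (0.065 and 0.10), with voom and median scaling (0.24 and 0.022) and with voom and library totals (0.60 and 0.41); with 1 library left out they ran from -0.51 to 0.31 and from -0.20 to 0.17. Pomc and Oprl1 are therefore without a settled direction. The count of called rows, 199 (36 higher in CS and 163 lower), was 112 with an offset of 1, 107 without a filter, 65 as deposited (35 higher in CS and 30 lower), 110 with quantile normalization (37 and 73), 673 with voom and median scaling (28 and 645), 525 with voom and library totals (272 and 253) and 428 (14 and 414) with the log2 RPKM model on rows with at least 60 reads (chosen after seeing the data). Without the variance trend it was 146 (111 and 35). Without 1 library it was 8 (CS library 1) to 297 (Con library 2). With the replicate block it was 0. Libraries with the same number did not deviate together (correlations -0.404, -0.18 and -0.0575, beside -0.142 to 0.308 for unlike numbers). With 3 libraries per group, centred within the group, these values cannot settle whether the numbers pair the libraries. By voom with library totals Penk had 0.90 with the replicate block and no longer passed (limma voom adjusted p = 0.0562). The ratio of precursors to receptors, 33.8 in CS and 20.1 in Con, was 2.28 and 1.54 without Penk. As reads, which are not per length, the ratio with Penk was 12.4 and 7.81. The groups then overlapped, with 8.84 to 15.0 in CS and 6.86 to 9.58 in Con. The cause of the differences between scalings was not tested. Depth limits all members except Penk, and a row without a read may still be present.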
